A study of Mus musculus with 7 samples.

Results

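The cathepsin proteases and the subunits of the vacuolar proton pump (V-ATPase) were examined in ribosome-bound RNA of cholinergic cells from mouse ventral striatum. Members were the rows of the expression table whose gene symbol was Cts followed by a single letter, or began with Atp6v or Atp6ap. This gave 41 of 22016 rows, 16 of them cathepsins and 25 pump rows, the last including the processed pseudogene Atp6v0c-ps2. Ctsk, Ctss and Atp6v0a2 were not analysed here.

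RNA was obtained by translating ribosome affinity purification, in which tagged ribosomes are captured with the RNA they carry, here from cells that express the tag from the ChAT bacTRAP transgene. The 4 KO libraries came from mice with ChAT bacTRAP, p11 fl/fl and ChAT Cre, and the 3 WT libraries from littermates with ChAT bacTRAP and p11 fl/fl but without Cre. WT is thus the name of a floxed, Cre-negative control, and an effect of Cre cannot be told apart from that of the deletion. The tissue in a library came from 3 C57/Bl6N mice at 8 to 12 weeks of age, with 6 ventral striata combined. The labels name both sexes for the series. Y-linked RNA was nevertheless listed at 0.0 FPKM in KO2, WT2 and WT3, so males were not seen in every library. Replicates were pools of mice, so the p-values measure the spread between pools.

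Lysosomes break down proteins, lipids and sugars in an acid lumen. Cathepsins are their main proteases and are made as inactive precursors that mature at low pH. The acid comes from the V-ATPase, in which a cytosolic sector, V1, hydrolyses ATP and turns a rotor that drives protons through a membrane sector, V0. Neurons use the same pump to fill synaptic vesicles, since the proton gradient powers the uptake of transmitter, including acetylcholine.

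S100a10, the targeted gene, fell in the KO libraries. Its level was 127.1, 138.8, 189.8 and 89.2 FPKM in KO1 to KO4, against 329.5, 332.7 and 387.5 FPKM in WT1 to WT3. FPKM, the unit the authors deposited, are fragments relative to the length of the gene and the reads of the library. Every KO value was under every WT value, and the KO mean was 38.9% of the WT mean (log2 fold change -1.40, SE 0.22, limma adjusted p = 0.0098). Leaving out WT1 or WT2 ended the call (adjusted p = 0.063 and 0.058). The labels do not give the floxed part of the gene.

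Over all 10089 tested rows, those with a mean of at least 1 FPKM, limma called 176 (1.74%) at an adjusted p under 0.05, 0.971% as higher and 0.773% as lower in KO, and KO and WT values did not overlap in 17.4%. An unadjusted p under 0.05 was found in 18.8% of rows, and the median log2 fold change, KO minus WT of log2(FPKM + 1), was 0.03. Summed FPKM per library ran from 379417 in KO1 to 511328 in KO3. Markers of cholinergic neurons, all 8 that were in the table tested, summed to 924.5 to 1123 FPKM in KO and 1194 to 1340 FPKM in WT. Of the 8, 5 had negative fold changes and 3, Lhx8, Slc5a7 and Gbx2, positive ones, and none was called. Slc18a3 fell most, with a mean of 321.6 FPKM in KO and 543.1 FPKM in WT. Microglia are rich in cathepsins. None of their 13 markers in the table reached a mean of 1 FPKM, and together they summed to 1.2 to 4.3 FPKM in KO and 1.0 to 2.6 FPKM in WT. RNA of other striatal cells was detected at higher levels. Medium spiny neuron markers summed to 79.9 to 273.3 FPKM in KO and 69.2 to 94.8 FPKM in WT, oligodendrocyte markers to 34.8 to 79.4 FPKM in KO and 33.0 to 39.7 FPKM in WT, and markers of other interneurons to 10.3 to 91.6 FPKM in KO and 9.9 to 14.8 FPKM in WT, each with its highest value in KO1. Astrocyte markers summed to 49.9 to 77.1 FPKM in KO and 52.2 to 57.1 FPKM in WT, and endothelial and mural cell markers to 6.1 to 9.9 FPKM in KO and 6.2 to 8.0 FPKM in WT. Of 8 astrocyte markers only 2, Slc1a2 and Aldoc, reached a mean of 1 FPKM. Among the 5 endothelial and mural cell markers, only 2, Rgs5 and Itm2a, did so. The part of these cells in the results below was not tested.

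Of the 41 members, 24 reached the filter and were tested, 6 were detected below it and 11 were listed at 0.0 FPKM in every library. The 24 tested members spanned from 5.2 FPKM for Atp6v0e to 1647 FPKM for Atp6v0c-ps2. Atp6v0c was the 1 member of the 24 to pass the threshold, and it fell, beside 1.74% of all tested rows called and 0.773% called lower in KO. In 6 of the 24 the groups did not overlap, beside 17.4% of all rows, and 5 had an unadjusted limma p under 0.05, beside 18.8%. The 18 tested pump rows had 14 positive and 4 negative fold changes with a median of 0.13, and the 6 cathepsins had 2 positive and 4 negative ones with a median of -0.09, beside a median of 0.03 and 53.4% positive fold changes over all rows. The pump median was 0.057 with quantile normalization, 0.048 with GC and length trends removed and 0.079 without WT3, and the cathepsin median was -0.014 without WT1 or with array weights and 0.012 with no filter.

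**Figure D1:**
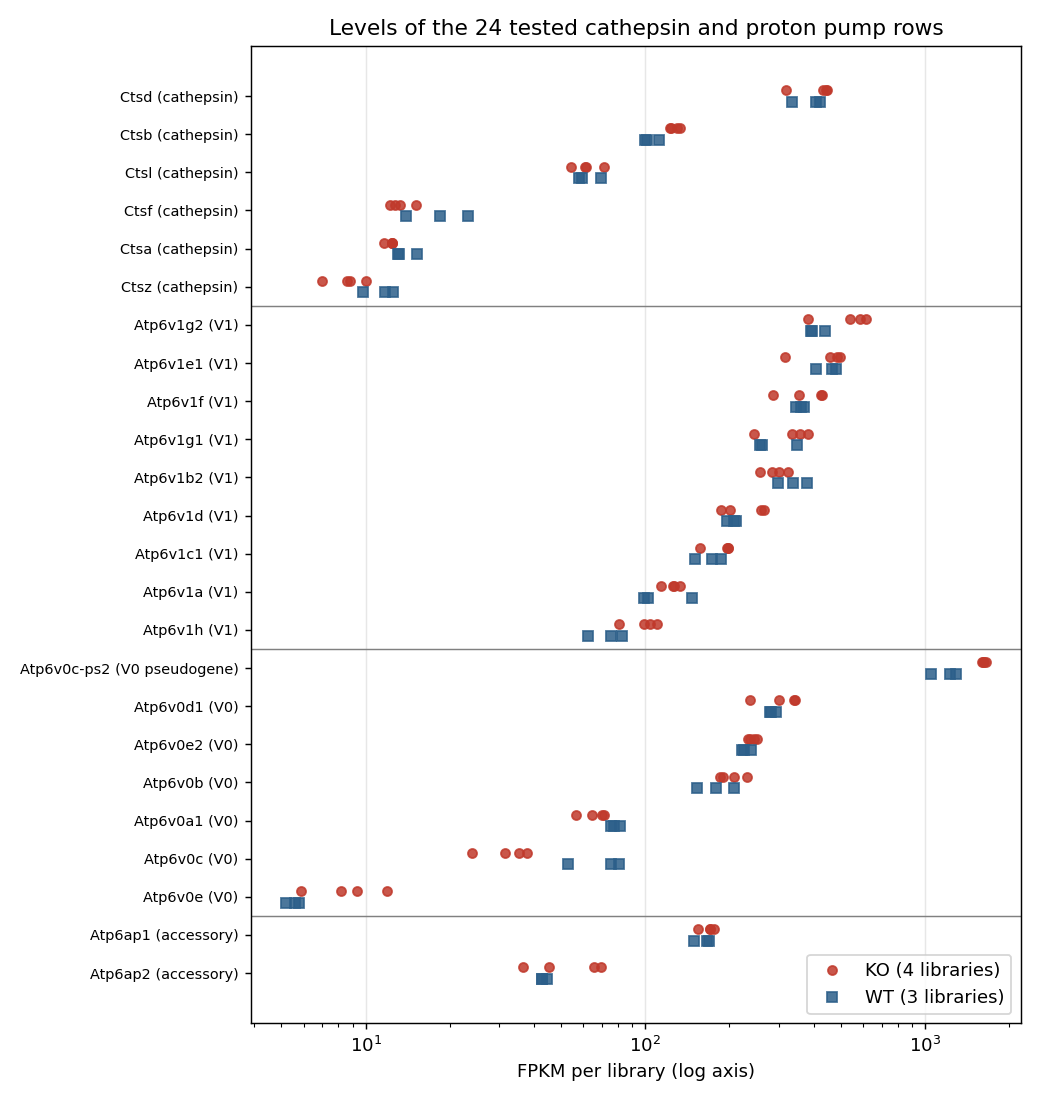
FPKM of each tested member in each library, on a log axis, with KO as red circles above WT as blue squares, grouped as cathepsins, V1, V0 and accessory proteins. KO and WT points interleave for most rows; Atp6v0c has KO values of 24 to 37.8 FPKM, all left of the WT values of 52.9 to 80.6 FPKM, and Atp6v0c-ps2 stands far to the right of every other member.

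Atp6v0c encodes the c subunit, the proteolipid whose copies form the rotating ring of V0 and carry the protons. Its row stood at 37.8, 24, 31.5 and 35.4 FPKM in KO1 to KO4, against 80.6, 75.3 and 52.9 FPKM in WT1 to WT3. The groups did not overlap, and the KO values were the low ones. The mean fell to 32.2 ± 6.04 FPKM in KO (SD, n = 4), against 69.6 ± 14.7 FPKM in WT (SD, n = 3), and the log2 fold change of -1.09 (SE 0.19) had a 95% confidence interval of -1.51 to -0.66 (limma adjusted p = 0.019). No call was made when KO2 was left out (-0.96, limma adjusted p = 0.061), nor when WT1 was (-0.97, adjusted p = 0.12) or WT2 (-1.02, adjusted p = 0.12). In bulk RNA, fewer cells of a type and less RNA per cell cannot be told apart.

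The row Atp6v0c-ps2 differed in the other direction. It is annotated as a processed pseudogene, an intronless copy of the Atp6v0c RNA, at chromosome 6 from 37806086 to 37806550 (plus strand, mm10), while Atp6v0c itself lies on chromosome 17 from 24163866 to 24169702 (minus strand). The pseudogene row stood at 1621, 1647, 1600 and 1613 FPKM in KO1 to KO4, against 1295, 1050 and 1231 FPKM in WT1 to WT3, which made it the 32nd highest of all tested rows by mean FPKM. The KO values lay above the WT values, with means of 1621 ± 19.8 FPKM in KO (SD, n = 4) and 1192 ± 127 FPKM in WT (SD, n = 3), and did not pass the threshold (log2 fold change 0.45, SE 0.20, limma adjusted p = 0.24).

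Over the coding sequence, gene and pseudogene are the same but for a single base. The 465 coding bases of Atp6v0c, without the stop codon, and the 465 annotated bases of Atp6v0c-ps2 align without a gap and match at 464 positions (99.8%). The first 150 bases of each are shown because they hold the only difference, T111C, counted from 1 at the A of the start codon with the gene's base first and marked by the capital. An identical run of 354 bases follows it.
Atp6v0c: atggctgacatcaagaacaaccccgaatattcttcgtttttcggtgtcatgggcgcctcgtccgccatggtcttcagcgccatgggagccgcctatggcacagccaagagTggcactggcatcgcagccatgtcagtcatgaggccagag
Atp6v0c-ps2: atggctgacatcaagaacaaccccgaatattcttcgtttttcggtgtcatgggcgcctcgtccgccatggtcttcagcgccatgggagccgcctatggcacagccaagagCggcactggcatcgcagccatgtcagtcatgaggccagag
Of the 31-base words of the annotated pseudogene, 95.6% also occur in transcripts of other genes, 92.9% in those of Atp6v0c. Of the words of the Atp6v0c transcripts, which reach beyond the coding sequence, 11.93% occur in other genes, 11.87% in Atp6v0c-ps2. Reads from the shared stretches cannot be assigned to either row by their sequence, and the sources used here do not give how the authors counted reads with several matches. The level of each row is uncertain for that reason.

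Added together, Atp6v0c and Atp6v0c-ps2 gave 1659, 1671, 1632 and 1649 FPKM in KO1 to KO4, against 1375, 1125 and 1284 FPKM in WT1 to WT3. FPKM is relative to length, and the rows differ in length, with 465 bases in Atp6v0c-ps2 and 2567 in the longest Atp6v0c transcript. The sum is therefore not the level of 1 combined gene, and shares of it are not shares of reads. The sum followed the pseudogene row, because Atp6v0c made up 1.44% to 2.28% of it in KO and 4.12% to 6.69% in WT, ranges that did not overlap. In the fit with the rows summed, a setting chosen after seeing the data, the difference was positive and did not pass the threshold (log2 fold change 0.39, SE 0.20, limma adjusted p = 0.31), with means of 1653 ± 16.8 FPKM in KO (SD, n = 4) and 1261 ± 127 FPKM in WT (SD, n = 3). Atp6v0c, Atp6v0c-ps2 and their sum each had a two-sided p of 0.0571 in the exact permutation test, the smallest that the 35 permutations allow. Any row whose groups do not overlap gets this value, so it is no separate evidence.

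**Figure D2:**
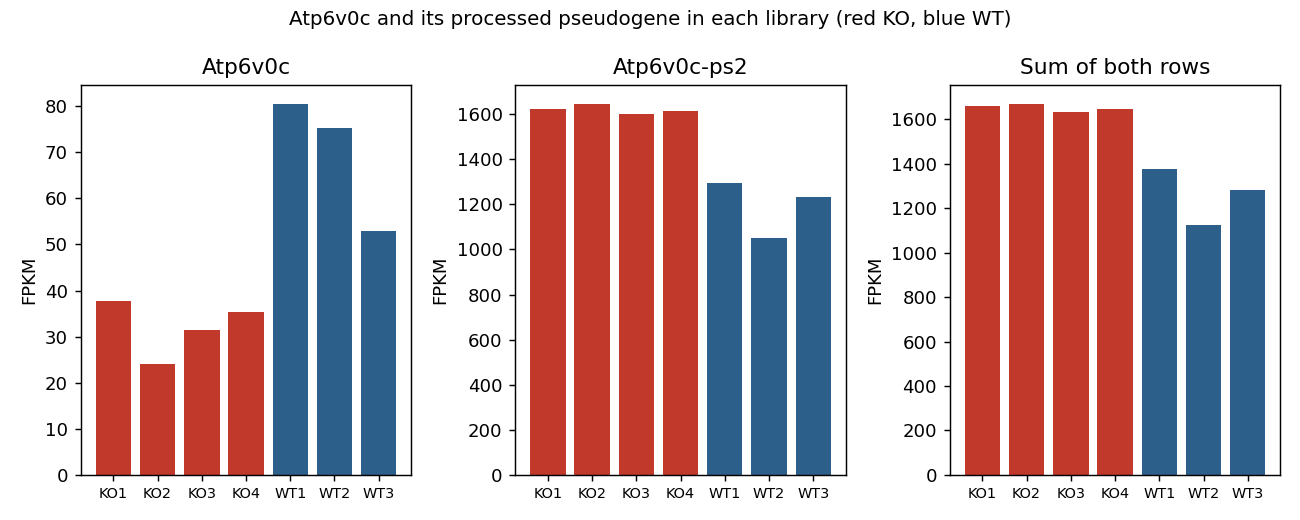
Bars give FPKM per library for Atp6v0c, for Atp6v0c-ps2 and for the sum of both rows, with KO in red at the left of WT in blue; each axis starts at 0 and has its own scale. Atp6v0c is lower in all 4 KO libraries, at 24 to 37.8 against 52.9 to 80.6 FPKM, while the pseudogene row and the sum are higher in all 4.

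The other V0 genes did not pass the threshold. Atp6v0a1 encodes the a subunit, which holds the channels that protons pass on their way to and from the ring. It stood at 56.6, 71.0, 64.4 and 69.8 FPKM in KO1 to KO4, against 75.6, 77.6 and 81.5 FPKM in WT1 to WT3, so that the groups did not overlap (log2 fold change -0.26, SE 0.14, limma adjusted p = 0.34). Atp6v0e, a small subunit with the lowest level of the tested members, had 8.2, 5.9, 11.9 and 9.3 FPKM in KO1 to KO4, against 5.6, 5.2 and 5.8 FPKM in WT1 to WT3. The groups touched without overlapping, as KO2 lay 1 rounding step of 0.1 FPKM above the highest WT value (log2 fold change 0.55, SE 0.21, limma adjusted p = 0.18).

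Atp6v0b, the c'' proteolipid of the ring, had 184.4, 208.0, 189.2 and 231.9 FPKM in KO1 to KO4 and 207.0, 178.7 and 153.4 FPKM in WT1 to WT3. Its groups overlapped (log2 fold change 0.18). Atp6v0d1 encodes the subunit that links the ring to the V1 rotor. It averaged 305 ± 49.4 FPKM in KO (SD, n = 4) and 285 ± 7.94 FPKM in WT (SD, n = 3), with a log2 fold change of 0.08. Atp6v0e2, the paralog of Atp6v0e, averaged 242 ± 7.92 FPKM in KO and 229 ± 8.66 FPKM in WT, a log2 fold change of 0.08 with a 95% confidence interval of -0.23 to 0.39. Without both c rows, the V0 genes summed to 737.1, 859.9, 843.6 and 856.3 FPKM in KO1 to KO4 and to 820.5, 765.3 and 744.9 FPKM in WT1 to WT3. In that sum KO1 lay below all WT libraries and the other KO libraries lay above them.

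All 9 tested V1 genes overlapped between the groups, and none passed the threshold, while 1 of them, Atp6v1h, had an unadjusted limma p under 0.05. Atp6v1h encodes the H subunit, which is needed for activity and silences free V1. It stood at 99.0, 110.4, 103.7 and 80.7 FPKM in KO1 to KO4, against 62.4, 82.5 and 75.6 FPKM in WT1 to WT3. Of the KO values, KO4 fell within the WT range (log2 fold change 0.42, SE 0.16, limma adjusted p = 0.20). Atp6v1g2, the G subunit of the peripheral stalks that is typical of neurons, had the highest mean of the V1 genes in KO, at 530.5 FPKM, while Atp6v1e1 had the highest in WT, at 451 FPKM, against 409 FPKM for Atp6v1g2. It had 381.7, 538.3, 584.5 and 617.5 FPKM in KO1 to KO4, against 392.2, 396.3 and 438.3 FPKM in WT1 to WT3. KO1 lay below every WT library and the other KO libraries above them (log2 fold change 0.35, SE 0.20, limma adjusted p = 0.36, and without KO1 0.50, adjusted p = 0.0502). With 1 library left out, the log2 fold change of Atp6v1g2 ran from 0.27 to 0.50 and its limma adjusted p from 0.0502 to 0.63.

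The catalytic hexamer of V1 is built from the A and B subunits. Atp6v1b2, the B subunit of brain, had 257.8, 300.1, 323.1 and 283.7 FPKM in KO1 to KO4 and 337, 377.3 and 297.7 FPKM in WT1 to WT3, and WT3 lay below 2 KO libraries (log2 fold change -0.21). Atp6v1a, the A subunit that hydrolyses ATP, averaged 125 ± 8.01 FPKM in KO and 116 ± 26.6 FPKM in WT, and its highest value was in WT2 at 146.5 FPKM. In the rotor, Atp6v1f had 286.1, 354.5, 426.7 and 427.7 FPKM in KO1 to KO4 and 346.3, 359.2 and 371 FPKM in WT1 to WT3. The KO libraries surrounded the narrow WT range (log2 fold change 0.04). Atp6v1d, also of the rotor, averaged 228 ± 40.2 FPKM in KO (SD, n = 4) and 205 ± 8.11 FPKM in WT (SD, n = 3).

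The peripheral stalks, which hold the hexamer still, are made of the E and G subunits and joined to V0 by the C subunit. Atp6v1e1 had 315.7, 484.1, 495.2 and 457.9 FPKM in KO1 to KO4 and 479.3, 465.2 and 407.8 FPKM in WT1 to WT3. KO1 was the lowest and KO3 the highest of the 7 libraries (log2 fold change -0.06). Atp6v1g1, the widely expressed G subunit, had 245, 382.1, 333.9 and 358.7 FPKM in KO1 to KO4 and 260.6, 349.1 and 256.6 FPKM in WT1 to WT3, with KO1 again the lowest (log2 fold change 0.19). Atp6v1c1 averaged 187 ± 20.1 FPKM in KO (SD, n = 4) and 170 ± 18 FPKM in WT (SD, n = 3), a log2 fold change of 0.14. Over the 9 V1 genes, the 95% confidence intervals of the log2 fold change reached from -0.57 in Atp6v1b2 to 0.78 in Atp6v1g2. In Atp6v1g1, 24% of the 31-base words occur in other transcripts, all of them in Gm13453, and in Atp6v1f 18.4%, so their levels are uncertain as well.

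**Figure D3:**
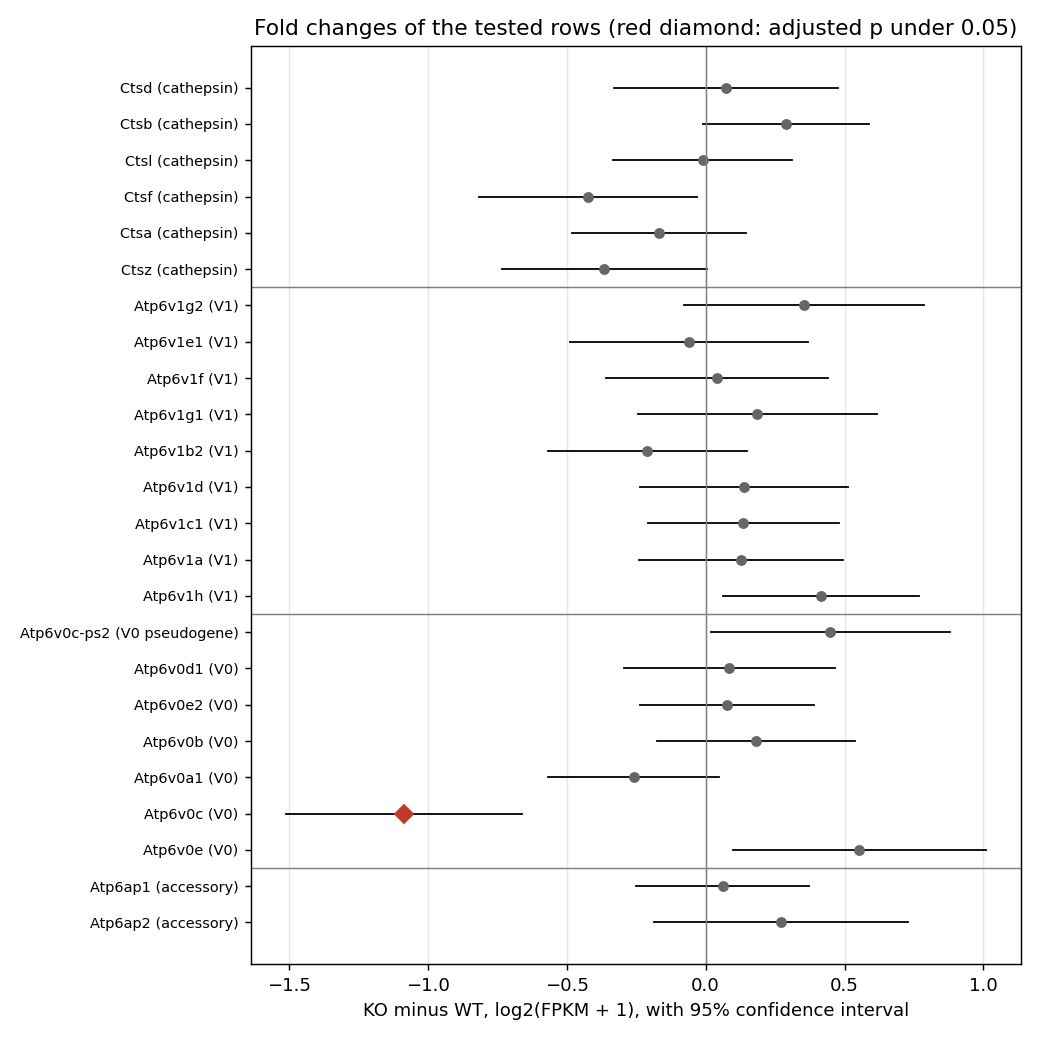
Log2 fold change, KO minus WT of log2(FPKM + 1), of each tested member with its 95% confidence interval as a line, grouped as in the plot of levels. The interval of Atp6v0c, the red diamond, runs from -1.51 to -0.66; most other intervals cross 0, and Atp6v0c-ps2, Atp6v0e, Atp6v1h and Ctsf, which do not, had adjusted p of 0.18 to 0.24.

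Accessory proteins help to assemble the pump and steer it. Atp6ap1, known as Ac45, had 154.4 to 176.3 FPKM in KO and 148.8 to 168.7 FPKM in WT (log2 fold change 0.06). Atp6ap2, the prorenin receptor, split the KO libraries, with 69.5, 65.5, 45.2 and 36.6 FPKM in KO1 to KO4 and 44.4, 42.7 and 42.7 FPKM in WT1 to WT3. KO1 and KO2 lay above the WT range and KO4 below it (log2 fold change 0.27, SE 0.21, limma adjusted p = 0.50). It was 0.14 without KO1, 0.17 without KO2 and 0.44 without KO4, and 0.026 with GC and length trends removed. Both genes lie on the X chromosome. RNA of 4 Y-linked genes was listed at 0.0 FPKM in KO2, WT2 and WT3. It summed to 12.2 to 20.5 FPKM in KO1, KO3, KO4 and WT1, so the sexes were not pooled evenly, within or between the groups. Every KO library but KO2 held Y-linked RNA, while WT1 was the only WT library that did. Sex was thus partly tied to genotype. The third accessory row, Atp6ap1l, had 0.1 to 2.1 FPKM in KO and 0.0 to 0.5 FPKM in WT and was not tested.

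For 6 of 7 pump subunits with several genes in the table, 1 paralog carried at least 95.2% of their summed FPKM in every library. Atp6v0a1, Atp6v0d1, Atp6v1b2 and Atp6v1e1 made up 100% of the summed FPKM of their paralogs in the table, since Atp6v0a4, Atp6v0d2, Atp6v1b1 and Atp6v1e2 were listed at 0.0 FPKM throughout. These 4 genes are best known from kidney, osteoclasts and testis. The a subunit share leaves out Atp6v0a2. A value of 0.0 FPKM does not show that a gene is not expressed, since the widely expressed lysosomal nuclease gene Dnase2a was also listed at 0.0 FPKM in every library. Atp6v1c1 carried 99.89% to 100% of the C subunit, and Atp6v0e2 carried 95.2% to 97.5% of the e subunit in KO and 97.5% to 97.7% in WT. The G subunit was mixed. Atp6v1g2 made up 60.9%, 58.5%, 63.6% and 63.3% of it in KO1 to KO4 and 60.1%, 53.2% and 63.1% in WT1 to WT3, with the rest from Atp6v1g1, as Atp6v1g3 was listed at 0.0 FPKM. These shares overlapped between the groups.

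Among the cathepsins, Ctsd, Ctsb and Ctsl together made up 92.1% to 94.8% of the summed cathepsin FPKM in each library. Transcripts of other genes hold 33.2% of the 31-base words of Ctsd (in Gm49369). They hold 28.2% of those of Ctsl (mostly in Gm47123) and 13.0% of those of Ctsb (mostly in Fdft1). Words were counted on both strands over all annotated transcripts, so a share of words is not a share of reads. Levels and shares of these genes are uncertain by an amount that was not measured. Ctsb encodes cathepsin B, a cysteine protease whose precursor is known to bind p11, the product of S100a10. The gene, on chromosome 14 (63122462 to 63145923, plus strand, mm10), had 130.4, 133.6, 123.7 and 122.4 FPKM in KO1 to KO4, against 112.0, 99.4 and 101.1 FPKM in WT1 to WT3. Every KO value lay above every WT value. The means were 128 ± 5.36 FPKM in KO (SD, n = 4) and 104 ± 6.84 FPKM in WT (SD, n = 3), or 122% of the WT level, and the difference did not pass the threshold (log2 fold change 0.29, SE 0.14, 95% confidence interval -0.01 to 0.59, limma adjusted p = 0.28). An exact permutation test gave it a two-sided p of 0.0571, the smallest this design can give. Every row without overlap gets that value, so it adds nothing to the lack of overlap. With 1 library left out at a time, the log2 fold change of Ctsb ran from 0.26 to 0.34 (limma adjusted p from 0.20 to 0.52). Ctsb made up 24%, 19.8%, 18.3% and 19.0% of the cathepsin sum in KO1 to KO4 and 17.1%, 16.4% and 19.0% in WT1 to WT3, so this share overlapped.

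Ctsd, an aspartic protease and the most abundant cathepsin, had 317.9, 445.2, 443.5 and 432.8 FPKM in KO1 to KO4, against 422.4, 406.9 and 334.7 FPKM in WT1 to WT3. The groups overlapped, with KO1 the lowest of all libraries (log2 fold change 0.07, limma adjusted p = 0.87). Ctsl, a cysteine endopeptidase, had 60.9, 61.4, 71.2 and 54.4 FPKM in KO1 to KO4 and 69.7, 59.2 and 58.1 FPKM in WT1 to WT3, and the KO values spanned the WT range. Its log2 fold change was -0.01 with a 95% confidence interval of -0.33 to 0.31.

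The cathepsins of low level had negative fold changes, none of which passed the threshold. Ctsf, a cysteine protease with an unusually long propeptide, had 12.2, 15.2, 13.3 and 12.7 FPKM in KO1 to KO4, against 23.2, 18.5 and 14.0 FPKM in WT1 to WT3. KO2 lay above WT3 (log2 fold change -0.42, SE 0.18, limma adjusted p = 0.23). Ctsz, a carboxypeptidase also called cathepsin X, had 8.6, 7.0, 10 and 8.8 FPKM in KO1 to KO4, against 12.5, 9.8 and 11.7 FPKM in WT1 to WT3. KO3 lay just above WT2 (log2 fold change -0.36, SE 0.17, limma adjusted p = 0.27). Ctsa, the serine carboxypeptidase that protects beta-galactosidase and neuraminidase in the lysosome, had 11.6, 12.4, 12.4 and 12.4 FPKM in KO1 to KO4, against 15.3, 13.2 and 13.1 FPKM in WT1 to WT3. Its groups did not overlap (log2 fold change -0.17, SE 0.14, limma adjusted p = 0.55). Of the 31-base words of Ctsa, 14.6% occur in transcripts of other genes.

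The other 10 cathepsins were not tested. Ctso, a cysteine protease, was detected at 0.6 to 2.1 FPKM in KO and 0.5 to 0.9 FPKM in WT. Ctsc, which activates the serine proteases of immune granules, was listed at 0.1 FPKM in KO1 and at 0.0 elsewhere. Ctsh reached 0.2 FPKM in KO3 alone, and Ctsw, of cytotoxic lymphocytes, 0.1 FPKM in WT3 alone. Ctse, Ctsg of neutrophil granules, and Ctsj, Ctsm, Ctsq and Ctsr were listed at 0.0 FPKM in every library. The last 4 belong to a cluster on mouse chromosome 13 whose members are expressed in the placenta of rodents.

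The KO1 library held the lowest KO value in 12 of the 24 tested members (50%), beside 37.6% of all tested rows. It did so in 6 of the 9 V1 genes, whose median difference from the WT mean was -0.13 in KO1 and 0.22, 0.22 and 0.03 in KO2, KO3 and KO4, on the log2(FPKM + 1) scale. KO1 also had the lowest summed FPKM and the highest level of markers of other striatal cells. Without KO1 the number of pump rows called was 1, and the median over pump rows was 0.15, beside 0.079 to 0.17 with any 1 library left out, the lowest without WT3.

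**Figure D4:**
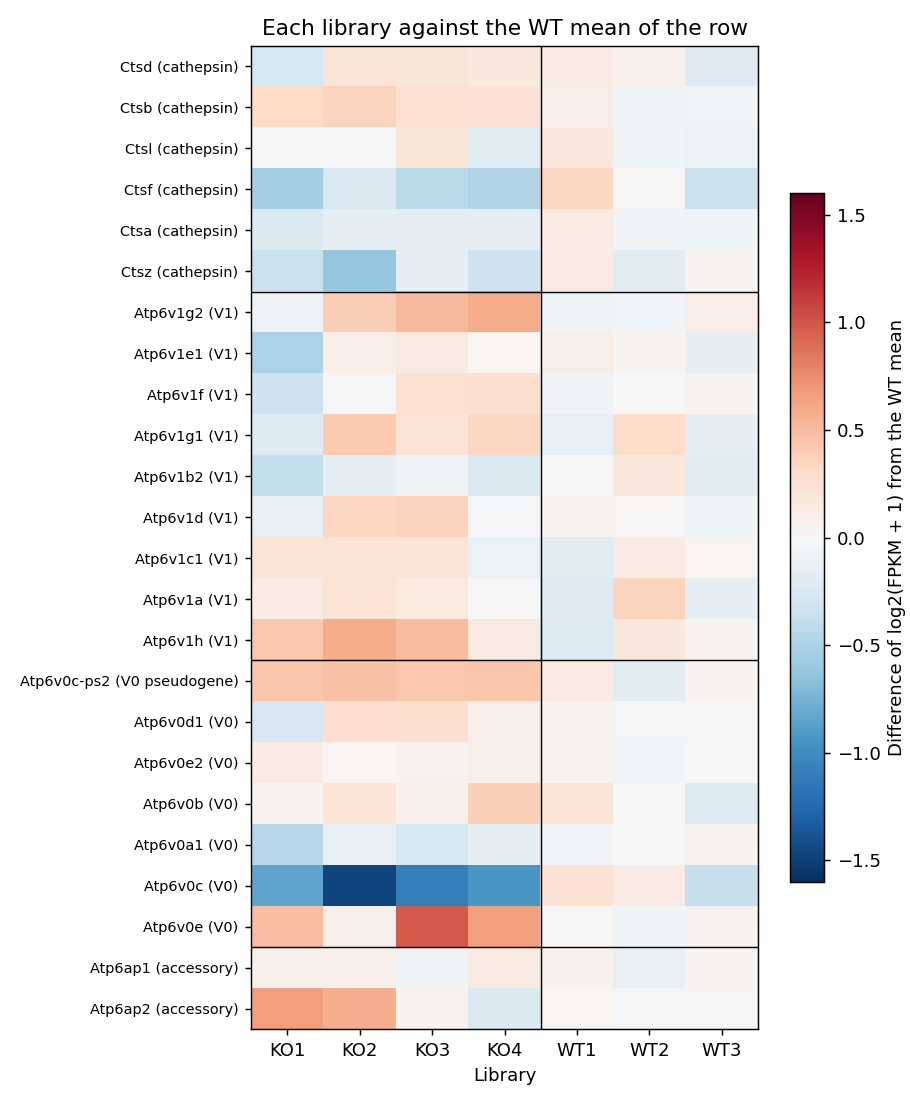
Difference of log2(FPKM + 1) of each library from the WT mean of the row, for the 24 tested members, KO libraries left of WT libraries and red for higher than the WT mean. The KO1 column is blue, in part faintly, for Atp6v1g2, Atp6v1e1, Atp6v1g1 and Atp6v1d, where KO2 and KO3 are red. In Atp6v1c1, Atp6v1a and Atp6v1h KO1 is red as well. Atp6v0c is blue in all 4 KO libraries and Atp6v0c-ps2 is red in all 4.

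Lysosomal genes often carry the CLEAR element, which the transcription factor TFEB binds. The promoters of RefSeq (GRCm38.p6), from 250 bases before to 50 bases after the gene start, were searched on both strands for CACGTG, the E-box core, and for TCACGTG or CACGTGA, which contain it and make up most of CLEAR. The table held 22 promoters of 18 tested members and none of Ctsb, Atp6v0c-ps2, Atp6v1b2, Atp6v1c1, Atp6v1g1 or Atp6v1h. CACGTG was in 8 of the 22 (36.4%) and the longer motif in 6 (27.3%), beside 7.15% and 3.77% of all 32851 promoters, and 10.4% and 6.28% of the promoters of genes with a mean of at least 1 FPKM. The 6 genes with the longer motif were Ctsa, Ctsd, Atp6v0b, Atp6v0d1, Atp6v0e and Atp6v1a, and Ctsf and Ctsl had CACGTG alone. Neither motif was in the 3 promoters of Atp6v0c, nor in the 12 promoters of members below 1 FPKM. One match each in a cathepsin, a V0 and a V1 gene is shown in capitals within 50 bases of promoter, as examples of the motif that these members share, read on the strand of the gene. The Atp6v0b stretch holds a second match, in lower case.
Ctsd, chr7:142387898-142387947 (minus strand): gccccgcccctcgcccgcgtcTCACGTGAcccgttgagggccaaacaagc
Atp6v0b, chr4:117887338-117887387 (minus strand): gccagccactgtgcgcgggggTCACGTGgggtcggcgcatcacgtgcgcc
Atp6v1a, chr16:44139363-44139412 (minus strand): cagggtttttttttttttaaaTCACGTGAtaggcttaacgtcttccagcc
The 6 genes with the longer motif had log2 fold changes on either side of 0, from -0.17 for Ctsa to 0.55 for Atp6v0e. A match describes the sequence and is not evidence that TFEB acts there.

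Genes around the cathepsins and the pump were read from lists chosen with earlier results of these data known. Over all tested rows, 0.971% were called higher and 0.773% lower, 18.8% had an unadjusted limma p under 0.05, and the median was 0.03. Of 35 tested lysosomal hydrolases and activators, 1 rose and none fell at the threshold, with a median log2 fold change of -0.04. Ids, the iduronate sulfatase that removes sulfate from glycosaminoglycans, had 200.4, 158.1, 136.3 and 161.0 FPKM in KO1 to KO4, against 82.8, 97.5 and 102.1 FPKM in WT1 to WT3. All KO values lay above the WT values (log2 fold change 0.79, SE 0.17, limma adjusted p = 0.043). This call was lost without KO2, KO4, WT1, WT2 or WT3 (adjusted p = 0.13, 0.078, 0.18, 0.16 and 0.095), and with a term for Y-linked RNA (0.83, adjusted p = 0.062), Ids being X-linked. Gaa, the acid alpha-glucosidase, averaged 63.0 ± 3.84 FPKM in KO (SD, n = 4) and 87.9 ± 5.16 FPKM in WT (SD, n = 3), which was -0.47 as a log2 fold change (limma adjusted p = 0.10).

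None of 20 lysosomal membrane proteins and transporters passed, 4 had an unadjusted limma p under 0.05, and their median was -0.09. Scarb2, the receptor that carries glucocerebrosidase to lysosomes, had 6.6 to 7.7 FPKM in KO and 10.7 to 12.6 FPKM in WT (log2 fold change -0.61, limma adjusted p = 0.072). With 1 library left out, Scarb2 was called only without KO1 (limma adjusted p = 0.044), and its adjusted p reached 0.20. Tmem192, a lysosomal membrane protein, had 28.8 to 31.7 FPKM in KO and 19.6 to 22 FPKM in WT (0.50, limma adjusted p = 0.084). Neither of these genes overlapped between the groups. Of 8 inhibitors of cathepsins none passed, 2 had an unadjusted limma p under 0.05, beside the same 18.8%, and the median was 0.02. Cstb, the intracellular inhibitor cystatin B, had 195.3, 295.5, 343.9 and 303.9 FPKM in KO1 to KO4, against 196.1, 193.4 and 185.3 FPKM in WT1 to WT3. KO1 lay within the WT range and the other KO libraries above it (0.54, limma adjusted p = 0.17). With 1 library left out, Cstb was called only without KO1 (0.71, limma adjusted p = 0.012), and its adjusted p reached 0.38. Without KO1, limma called 376 rows over all genes, beside 176 with every library. Spock2, a matrix proteoglycan of a family with members that inhibit cathepsin L, had a log2 fold change of -0.54 (limma adjusted p = 0.22).

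None of 14 sorting genes passed, 3 had an unadjusted limma p under 0.05, beside 18.8% of all tested rows, and their median was 0.05. Gga1, an adaptor for mannose 6-phosphate receptors, had 5.9 to 9.2 FPKM in KO and 9.9 to 13.2 FPKM in WT (log2 fold change -0.67, limma adjusted p = 0.092), and Vps26a, of the retromer, had a log2 fold change of 0.41 (limma adjusted p = 0.17). Of 11 genes for assembly and regulation of the pump none passed, and the median was 0.18, beside 0.03 over all tested rows. An unadjusted limma p under 0.05 was found in 4 of the 11, beside 18.8% of all tested rows. Rogdi, a partner of the complex that joins V1 to V0, had 53.5 to 85.1 FPKM in KO and 91.5 to 97.1 FPKM in WT (-0.50, limma adjusted p = 0.16), and Tmem199, an assembly factor in the endoplasmic reticulum, had 45.2 to 69.8 FPKM in KO and 37.9 to 44.7 FPKM in WT (0.39, limma adjusted p = 0.23).

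The pump also binds the Ragulator complex, which brings the kinase mTORC1 to lysosomes. Of 18 tested genes of the TFEB family and of lysosomal nutrient sensing, 1 rose and none fell at the threshold, with a median of 0.15. Over all tested rows, 0.971% were called higher and 0.773% lower, with a median of 0.03. Lamtor5, a Ragulator subunit, had 164.4, 214.0, 259.2 and 209.0 FPKM in KO1 to KO4, against 47.7, 77.5 and 78.8 FPKM in WT1 to WT3. The lowest KO value was above the highest WT value, and the mean was 212 ± 38.8 FPKM in KO (SD, n = 4) and 68.0 ± 17.6 FPKM in WT (SD, n = 3), which was 1.64 as a log2 fold change (SE 0.21, limma adjusted p = 0.0026). Lamtor5 passed in each of the 7 fits that left out 1 library (adjusted p up to 0.021). In the authors' deposited table Lamtor5 had a log2 fold change of 1.61 with an adjusted p of 1.3e-08. That table of 113 genes held 0 of the 41 members and did not list Ids. In Lamtor5, 18.6% of the 31-base words occur in other transcripts. The other Ragulator subunits went either way. Lamtor1 and Lamtor3 had log2 fold changes of 0.14 and 0.27, and Lamtor2 and Lamtor4 of -1.04 and -0.15. None of these passed the threshold (limma adjusted p from 0.15 to 0.79). Rraga, a Rag GTPase that Ragulator anchors, had 42.0 to 56.5 FPKM in KO and 66.6 to 89.0 FPKM in WT (-0.56, limma adjusted p = 0.10), and Tfeb itself was below the filter.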

How the data were processed

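Input was 1 ng of RNA per library, amplified (Ovation V2) before TruSeq V2 preparation, per the labels' protocols. The submitters' processing notes name DESeq 1.10.1, Cufflinks 2.1.1, TopHat2 2.0.8, TopHat and the build mm10, with no role. They do not name the annotation, the strand handling or the treatment of reads with several matches. The authors deposited FPKM per library, rounded to 1 decimal, and a table of 113 genes with the mean FPKM per group, the ratio of KO over WT, its log2 value, a p-value and its adjusted form. FPKM is not a count, so depth was unknown and no counting interval is given.

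Groups and replicates came from the sample titles, and columns from the library numbers in the file header (210 to 222 in KO, 83 to 113 in WT), so batches of numbers and groups cannot be told apart. log2(FPKM + 1) of the rows averaging 1 FPKM or more was fitted in R 4.3.3 by limma 3.58.1, with eBayes, an intensity trend and Benjamini-Hochberg adjustment over all 10089 rows (two-sided, threshold 0.05). The script was tested on simulated data. The exact permutation p is the doubled one-sided p over 35 permutations. Coordinates and shared 31-base words came from GENCODE vM21 (mm10), alignments from Biopython 1.88. Figures used matplotlib 3.10.9, and tables pandas 2.3.3 in Python 3.11.15.

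Members and lists were chosen with earlier results of these data known. Every member is accounted for. Named with values are S100a10, Ctsb, the most abundant members, and those past the threshold or with the smallest p. Of each list, the genes past the threshold and the 2 with the smallest p are named. The other Ragulator subunits were added beside Lamtor5. Cd68 is in both the microglia and the membrane protein list. Alternatives changed the pseudocount, filter, scaling, variance model, replicate block, GC and length trends, Y-linked RNA, the rows of a symbol and the libraries.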

Additional observations from a re-analysis of the deposited data

Results flagged for a closer look

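In 3 of 37 genes a KO library stood apart from the other 3 KO libraries by Dixon's test at the 95% level, which chance gives in about 1 of 20 groups. Ctsd stood at 317.9 FPKM in KO1, against 432.8 to 445.2 FPKM in the other KO libraries. Ctsa stood at 11.6 FPKM in KO1 and at 12.4 FPKM in each of the others, a gap of a few rounding steps. Atp6v1c1 stood at 157 FPKM in KO4, against 196.6 to 197.6 FPKM in the others.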

How the results depend on the processing

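FPKM without counts limited the precision to that of 7 pools. The 176 rows called became 83 without a filter, 100 without trend, 1689 with array weights and 18 with the replicate block, in which KO4 has no WT partner and does not enter the estimate, and 28 to 376 with a library left out (376, 56, 97 and 111 without KO1 to KO4, and 44, 28 and 75 without WT1 to WT3). S100a10 ran from -1.58 to -1.22 with a library left out, and was -1.22 with an adjusted p of 0.083 in that block. Pump rows called were 3 with array weights, 0 with the block and 0 with both c rows summed, and 0 to 1 with a library left out (0 without KO2, WT1 or WT2). Cathepsins called were 1 with array weights and 0 otherwise.

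Array weights gave 4, 5, 1, 3, 6 and 5 calls among hydrolases, membrane proteins, inhibitors, sorting, pump assembly and nutrient sensing genes. They gave 1689 calls over all 10089 rows. Hydrolases had 0 calls without a filter, without trend, with quantile normalization, with the block and with the Y-linked term. With GC and length trends removed, membrane proteins had 1 and nutrient sensing genes 2 calls, and quantile normalization also gave 2 among nutrient sensing genes. With a library left out, hydrolases, membrane proteins and inhibitors had 0 to 1 calls each.

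Atp6v0c was lower in every setting but the summed rows, where it turned to 0.39, and its call was lost with the block (-1.14, adjusted p = 0.12). Members near 0 changed sign. These were Atp6ap1 (-0.0054 with quantile normalization), Atp6v1a (-0.053 with array weights), Atp6v1d (-0.0081 with GC and length trends removed), Atp6v1e1 (0.045 with array weights, -0.13 to 0.090 with a library left out), Atp6v1f (-0.029 with quantile normalization, -0.031 with the block, -0.0093 with GC and length trends removed, -0.031 to 0.16 with a library left out), Ctsl (0.073 with array weights, 0.050 with the block, -0.078 to 0.072 with a library left out) and Ctsd (-0.030 to 0.19 with a library left out). The cathepsin median turned to 0.012 without a filter. The causes were not tested. The summed c rows, the GC and length trends and the Y-linked term were chosen after seeing the data.

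No pairing by replicate number was seen. Deviations of same-numbered libraries correlated at -0.22, 0.02 and -0.26, and no KO library correlated best with its own number. So few libraries cannot show whether they were paired.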
